A study of Rattus norvegicus with 6 samples.

Results

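Myocyte-derived cells (MDC) are the small, loosely adherent round cells that appear above the layer when purified adult heart muscle cells are kept in culture. The miRNAs that gave signal in all 3 sets titled MDC 1, MDC 2 and MDC 3 are described here, and they numbered 201 of the 375 rodent miRNA assays on the card (53.6%), with 188 mouse-named and 13 rat-named assays. The other 174 assays gave no signal in any MDC set, and 0 assays gave signal in some sets but not in others. The cells came from male Wistar-Kyoto rats, given as 2 months old in the labels. Their heart muscle cells were purified by sedimentation and a Percoll gradient and cultured in mitogen-rich medium for 2 weeks. The study's methods give serum, bFGF and TGF-β3 as additions to that medium. The round cells were then lifted off by gentle pipetting. No allele, transgene or drug was involved. The series also holds 3 sets from fresh myocytes, which were not compared here.

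Each set was read on a TaqMan rodent card of 384 wells after reverse transcription and preamplification. The Ct is the cycle at which a well crosses the fluorescence threshold, so a low Ct means much template, and 40 stands for no signal. The level used below is the mean Ct of the 4 wells for U6, a small nuclear RNA, minus the Ct of the miRNA. It is on the log2 scale, so 1 unit is 2-fold if every assay doubles per cycle. A level of 0 would equal U6, whose wells averaged 13.98, 13.39 and 14.43 cycles in MDC 1, MDC 2 and MDC 3. The share of a miRNA is its part of the summed linear signal of the 201 members in 1 set, and the U6 value cancels in shares and ranks. Each assay has its own primers and efficiency, so the order of miRNAs is an order of assay signals and not of molecules per cell.

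The 3 MDC sets did not behave as 3 unrelated samples. They differed in 0 of 384 wells in whether signal was present, wells near the limit of detection included, and the series' design text calls them batches. The study's methods name 2 biological and 2 technical repeats, without saying which sets are which. The legend of its miRNA figure gives n = 3. The sets were counted here as 3 readings of 1 sample, so the spread given below is that between readings, in which technical spread and spread between preparations cannot be told apart. MDC 1 also stood apart in its values. Of its 208 wells with signal, 207 (99.5%) had a Ct within 0.1 cycle of a whole number, against 21.6% in MDC 2 and 19.2% in MDC 3. Its members therefore lay on 21 whole-cycle steps, with up to 23 members on a step, and their order within a step carried little information. Levels of the first few members are given for each reading, and some summary values are also given without MDC 1. Most other levels and shares are means over all 3 readings, with MDC 1 among them.

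miRNAs are RNAs of about the length of a primer that are cut from a hairpin precursor, and either arm of the hairpin (5p or 3p) can be kept. They guide a silencing complex to messenger RNAs by pairing mainly through the seed, bases 2 to 8, so that miRNAs with the same seed are grouped as a family. Many hairpins lie close together and are transcribed as 1 cluster. In the heart, miR-499, miR-208, miR-133 and miR-1 are known as miRNAs of the working muscle cell, whereas miR-21 and miR-199a are known from fibroblasts and the miR-17 cluster from dividing cells.

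The sequences of the miRNAs that led the profile are shown first, as the rat RefSeq entries (build GRCr8) of the same name. The assays' own target sequences were not used here. A sequence was matched for 173 of the 201 members. Together these members held 93.5% of the summed signal, and miR-99a and miR-106a were the unmatched members among the 20 highest. Capitals mark the seed, and the strands run 5′ to 3′. The 10 highest members had 10 different seeds.
miR-24-3p: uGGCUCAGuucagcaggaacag
miR-21-5p: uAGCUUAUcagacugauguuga
miR-19b-3p: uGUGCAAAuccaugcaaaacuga
miR-29a-3p: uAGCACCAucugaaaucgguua
miR-145-5p: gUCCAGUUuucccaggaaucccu
miR-222-3p: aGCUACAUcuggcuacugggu
miR-125b-5p: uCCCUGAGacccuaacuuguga
let-7e-5p: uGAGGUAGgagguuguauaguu
miR-20a-5p: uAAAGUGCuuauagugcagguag
miR-127-3p: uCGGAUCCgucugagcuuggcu

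Several of these have a single gene in the rat annotation. The mature miR-21 lies at chr10:71902653-71902674 on the minus strand, miR-29a at chr4:60617968-60617989 (minus), miR-145 at chr18:57370033-57370055 (minus), miR-222 at chrX:6022682-6022702 (plus), let-7e at chr1:67350243-67350264 (plus) and miR-127 at chr6:134328510-134328531 (plus). miR-24 is encoded at both chr17:1818672-1818693 and chr19:40859481-40859502, and miR-19b at both chr15:98588486-98588508 and chrX:137343070-137343092. For these the assay cannot tell which gene the RNA came from. All are annotated as miRNA genes, and any host genes were not examined.

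The profile was led by miR-24, miR-21 and miR-19b. miR-24 had levels of -1.99, -1.17 and -1.09 in MDC 1, MDC 2 and MDC 3, and held 10.6% of the summed signal on average over the readings. miR-21, known to rise in cardiac fibroblasts and in many dividing cells, had levels of -1.98, -1.28 and -1.26 and a share of 10.05%. miR-19b, a member of the miR-17 cluster, had -1.99, -1.45 and -1.37 and 9.46%. In MDC 1 the 3 fell on the same whole-cycle step, so their order there was not resolved. In MDC 2 and MDC 3 miR-24 ranked first and miR-21 second, and the third place went to miR-19b in MDC 2 and to miR-222 in MDC 3.

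A second group lay below these. miR-29a, known to repress collagens and other matrix genes, had levels of -2.97, -1.79 and -1.53 and a share of 6.59%. miR-145, known for its role in smooth muscle, had -2.99, -2.05 and -1.88 (5.70%). miR-125b-5p had -2.98, -2.27 and -2.07 (5.23%), and let-7e had -3.99, -2.66 and -2.53 (3.38%). Each of these was among the 10 highest in all 3 readings.

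miR-222 varied most among the leading miRNAs. Its levels were -3.98, -1.59 and -1.36, a range of 2.62 units, and its share was 3.11% at the lowest reading and 7.90% at the highest. It ranked 7, 4 and 3. MDC 1 gave the lowest share, and both other readings lay above the mean of 6.15%.

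The members ranked 9 to 20 by mean level had shares between 1.06% and 2.65%. They were miR-20a (mean level -3.50), miR-127 (-3.77), miR-106a (-3.86), miR-17 (-3.93), miR-193b (-3.97), miR-99a (-4.11), miR-411 (-4.14), miR-100 (-4.21), miR-199a-3p (-4.39), miR-26a (-4.41), miR-365 (-4.66) and miR-218 (-4.75). miR-20a, miR-17 and miR-106a are related in sequence. miR-127 and miR-411 come from the imprinted Dlk1-Dio3 locus. Neighbours in this order differed by less than their spread between readings. miR-99a went against the general pattern in that it was highest in MDC 1 (-4.00, against -4.09 in MDC 2 and -4.25 in MDC 3). miR-365 ranked 10 in MDC 1 but 26 in MDC 2 and 25 in MDC 3, so its place among the 20 highest rests on MDC 1.

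**Figure D1:**
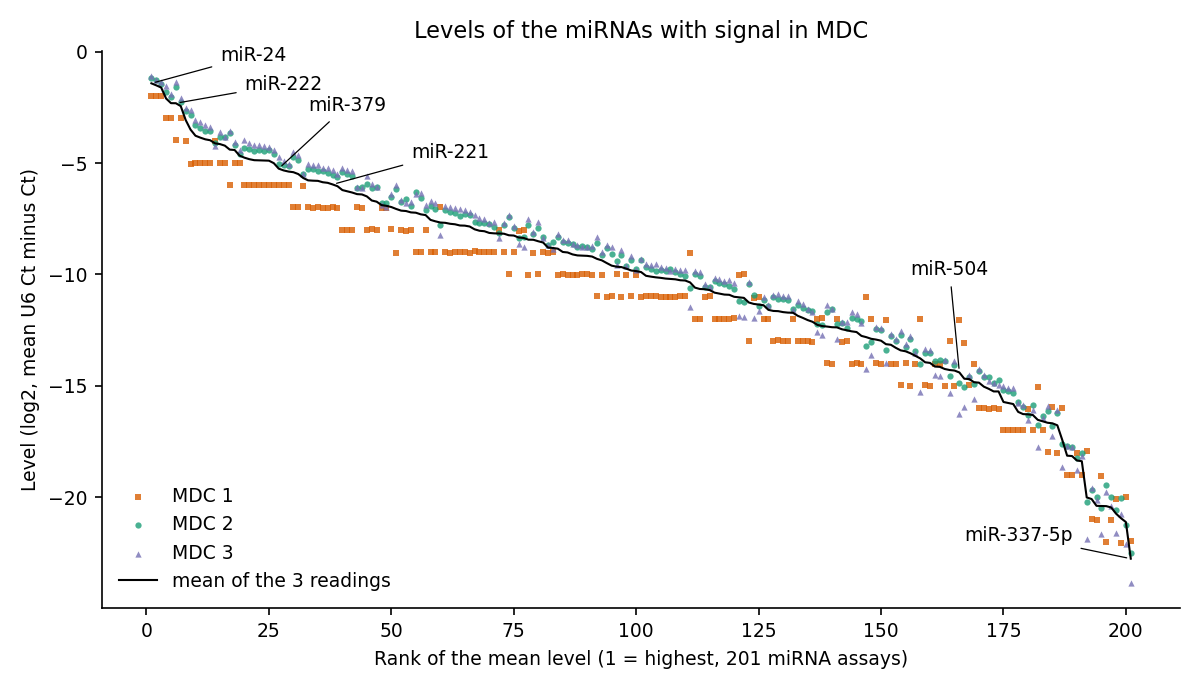
Level of each of the 201 miRNAs with signal (y axis, log2, mean U6 Ct minus Ct) against the rank of its mean level (x axis), with 1 symbol per reading and a line for the mean of the 3 readings. The levels span 21.4 units, and the squares of MDC 1 lie on horizontal steps 1 cycle apart, mostly below the other readings in the upper part.

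The summed signal was held by few miRNAs. The 3 highest held 30.1% on average, the 10 highest 62.0% and the 20 highest 77.5%, while the members below rank 100 held 0.733% together. In MDC 1, MDC 2 and MDC 3 the smallest number of miRNAs that held 50% of the signal was 6, 7 and 7, and for 90% it was 35, 39 and 38. MDC 1 was more concentrated at the top. Its 3 highest held 37.1%, against 27.5% in MDC 2 and 25.9% in MDC 3. In MDC 1 these 3 lay on the same whole-cycle step, and its shares are only as fine as such steps. Past the 50 highest the readings met, with 94.6%, 94.2% and 94.4%.

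**Figure D2:**
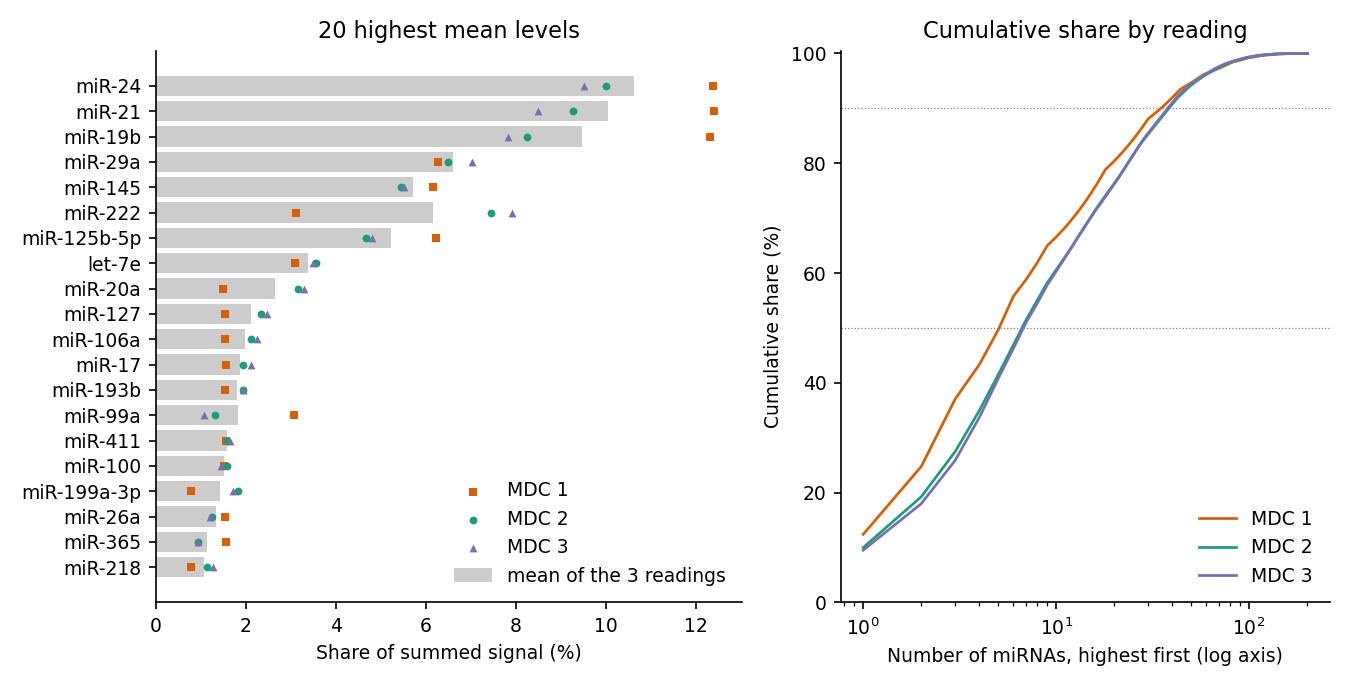
Left, share of summed signal (%) of the 20 miRNAs with the highest mean level, with bars for the mean of the 3 readings and symbols for each reading. Right, cumulative share (%) against the number of miRNAs taken from the highest down (log axis), with dotted lines at 50% and 90%; the curves of MDC 2 and MDC 3 overlie, and that of MDC 1 runs above them up to about the 50th miRNA.

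Over all members the mean levels had a median of -9.89 and a middle range, from the lower to the upper quartile, of -13.13 to -7.06. Of the 201 members, 25 lay above -5, 76 between -10 and -5, 69 between -15 and -10 and 31 at or below -15. The lowest 5 by mean level were miR-202-5p (-20.47), miR-142-5p (-20.75), miR-363 (-20.95), miR-542-5p (-21.12) and miR-337-5p (-22.77). The mean Ct was over 32 for 14 members, close to the limit of detection.

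The ranks held closely between MDC 2 and MDC 3 and less closely with MDC 1. Across the 201 members, which were read on 1 card design and are not independent replicates, the Spearman correlation was 0.998 between MDC 2 and MDC 3, 0.977 between MDC 1 and MDC 2 and 0.967 between MDC 1 and MDC 3. The median change of rank was 2, 7 and 8 places in the same order. Between MDC 2 and MDC 3, 199 of 201 members stayed within 10 places, against 136 between MDC 1 and MDC 2. Of the 20 highest of each reading, 17 were common to all 3, and of the 50 highest 45 were.

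When MDC 2 was rounded to whole cycles, its Spearman correlation with MDC 3 was 0.996. With the members of each whole-cycle step of MDC 1 counted as tied, MDC 1 correlated with MDC 3 at 0.963. How the values of MDC 1 came to lie near whole cycles is not known. Its part in the lower correlation was not tested. Relative to U6, levels in MDC 2 were 1.28 units above those in MDC 1 at the median, and levels in MDC 3 were 0.11 units above those in MDC 2.

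**Figure D3:**
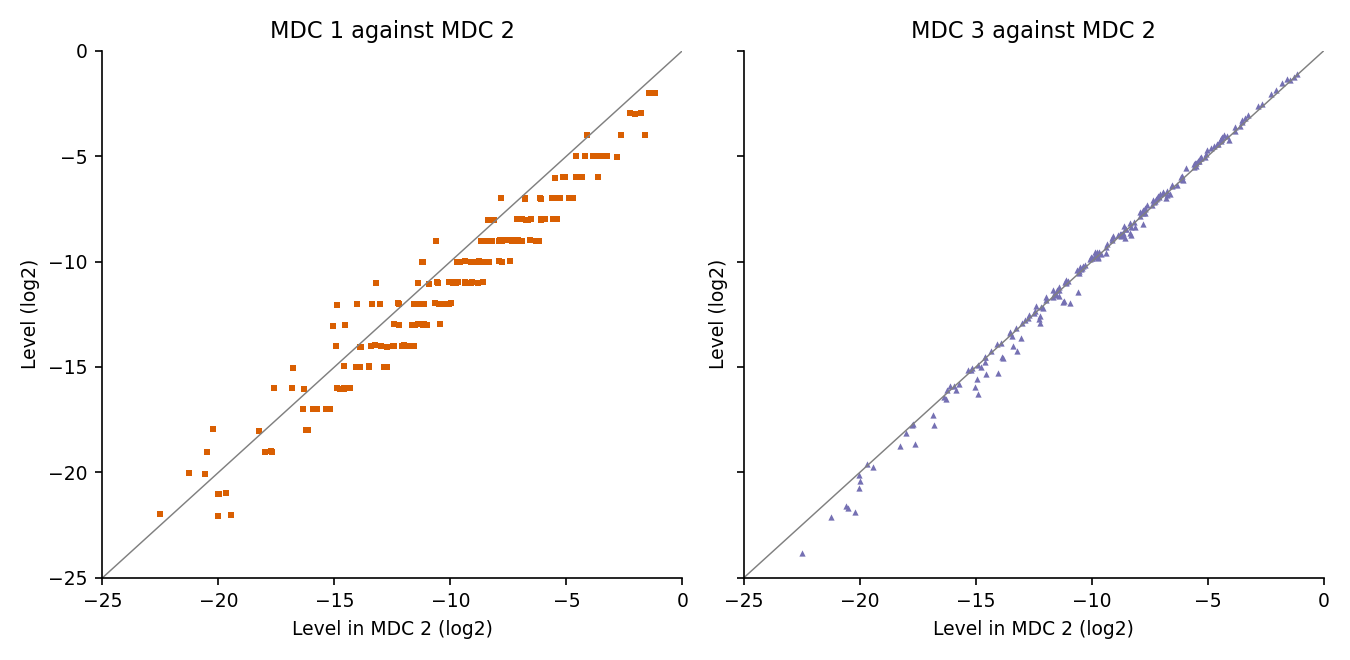
Level (log2) in MDC 1 (left) and MDC 3 (right) against the level in MDC 2, with 1 point per miRNA (201) and the line of equality. MDC 1 lies on steps and mostly below the line in the upper range, whereas MDC 3 follows the line apart from a set of low miRNAs below it.

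Part of the members shifted more than the rest between MDC 2 and MDC 3. Ct in MDC 3 was 0.94 cycle above that in MDC 2 at the median, and the difference ran from 0.70 to 2.71 cycles. For 25 members it exceeded 1.5 cycles, and by mean level none of these ranked among the 100 highest. In MDC 1 alone the rat assay of miR-532-5p, miR-199a-5p and miR-425 of this set ranked 79, 87 and 97. Among the control RNAs on the card, U87 (Ct 31.0, 31.2 and 33.2 in MDC 1, MDC 2 and MDC 3) and Y1 (22.0, 23.3 and 25.5) also exceeded 1.5 cycles between MDC 2 and MDC 3, and snoRNA135 (22.0, 20.5 and 21.6) did not. snoRNA202 and the plant control ath-miR159a gave no signal. The part of assay or card in this was not tested.

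Of the 5 members with the largest range over the readings, 4 were of this kind. miR-504 had levels of -12.04, -14.90 and -16.28, a range of 4.24 units. miR-141, of the epithelial miR-200 family, had -17.94, -20.23 and -21.89 (3.95 units). The rat assay of miR-207 and miR-685 ranged over 3.30 and 3.26 units. All 4 were highest in MDC 1. The mouse assay of miR-532-5p had the opposite order, with -9.02, -6.17 and -5.99 (3.03 units). Over all members the range had a median of 1.57 units, and it was 0.178 units over MDC 2 and MDC 3 alone.

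The miRNAs known from muscle cells held little of the signal in MDC. Of the 7 assays for cardiomyocyte miRNAs, 5 gave signal, and they held 0.150% of the summed signal. miR-133a had levels of -9.02, -8.68 and -8.68 and ranked 82 by mean level. The rat assay of miR-1 had -10.02, -8.34 and -8.17, and the mouse assay -11.06, -10.94 and -11.98. miR-133b (mean level -12.32) and miR-499 (-14.14), which is encoded within a myosin gene, ranked 138 and 161. miR-208 and miR-208b, encoded within the cardiac myosin heavy chain genes, gave no signal in any reading. The cells' name refers to their origin, and the assays of muscle miRNAs that gave signal ranked between 82 and 161 of 201. By mean level, miR-133a and the rat assay of miR-1 lay above the median of all members (-9.89). The other muscle assays with signal lay below it.

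Markers of other cells were read from lists chosen for the purpose. The 5 fibroblast-type assays all gave signal and held 12.4%, of which miR-21 alone made up 10.05%. miR-199a-3p (-4.39) and miR-214 (-5.00) were also high, whereas miR-31 (-10.86) and miR-199a-5p (-11.05) were not. The smooth muscle pair miR-145 and miR-143 (-2.31 and -5.77) held 6.23%. miR-21 and miR-145 are also present in many other cells, so these sums do not count cells.

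The endothelial pair was low, with mean levels of -12.05 for miR-126-3p and -15.14 for miR-126-5p and a share of 0.00744%. Among leukocyte markers, miR-155 (-5.49), which is also made in activated cells of other kinds, ranked 31, but miR-142-3p (-12.56), miR-223 (-15.82), miR-150 (-16.78) and miR-142-5p (-20.75) lay in the lower part. Of the neural markers miR-9 (-9.89) and miR-128a (-10.26) gave signal and miR-124 did not. miR-451, the erythroid marker, gave none. Of the 5 epithelial assays only miR-141 did, and at a mean level of -20.02. Pluripotency miRNAs, those of the clusters named for miR-302 and miR-290, were covered by 12 assays, all of them mouse-named. Of these 0 gave signal, beside 53.6% of the assays on the whole card. Whether the mouse-named assays read the rat forms of these miRNAs was not tested. The part of other cells in the profile was not tested.

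The 4 miRNAs taken as leading marks of MDC lay at different heights. Their sequences show that miR-222 and miR-221 share a seed, which differs from those of miR-21 and miR-379.
miR-222-3p: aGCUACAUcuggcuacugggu
miR-221-3p: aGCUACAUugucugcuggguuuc
miR-379-5p: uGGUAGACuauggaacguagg
miR-21 ranked second and miR-222 sixth by mean level. miR-379, from the Dlk1-Dio3 locus, had levels of -5.97, -5.04 and -4.73 and ranked 20, 29 and 29. miR-221 had -6.99, -5.55 and -5.33 and ranked 36, 40 and 39. miR-221 and miR-222 are neighbours on chromosome X, are known to repress the cell cycle inhibitor p27, and lay 3.65 units apart on average. Together the 4 held 17.4% of the signal (16.7% to 17.9% over the readings).

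By shared seed, the 173 members with a sequence fell into 125 seeds, of which 30 had at least 2 members and 9 at least 3. miR-24 (10.6%) and miR-21 (10.05%), each alone with its seed, held the most. The seed of miR-19b and miR-19a followed with 9.79%, the miR-29 seed with 6.90%, the let-7 seed with 6.83% and that of miR-222 and miR-221 with 6.61%. The last of these held 3.50% in MDC 1, 7.93% in MDC 2 and 8.40% in MDC 3, so that in MDC 2 and MDC 3 it stood above the miR-29 seed (6.90% and 7.39%) and the let-7 seed (7.02% and 6.96%). Members without a matched sequence, such as miR-106a, are in none of these sums, and the order of seeds with close shares is open to that. The 10 seeds with the largest shares held 69.6% together.

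Within a seed 1 member usually carried the signal. miR-19b and miR-19a differ at 1 base of 23, yet the levels of miR-19a were 4.79 units below on average (4.68 to 4.99 over the readings). miR-29a stood 5.13 units above miR-29c and 6.14 above miR-29b, the lowest of that seed at -8.24. miR-29a and miR-29c also differ at 1 base.
miR-19b-3p: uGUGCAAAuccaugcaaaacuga
miR-19a-3p: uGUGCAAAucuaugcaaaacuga
miR-29a-3p: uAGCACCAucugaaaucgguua
miR-29c-3p: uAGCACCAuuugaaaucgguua
miR-29b-3p: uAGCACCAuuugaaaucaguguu
Over the length of the shorter sequence, 30 member pairs with the same seed differ at 1 or 2 bases. Of these, 27 kept their order in all 3 readings, some of them only within a step of MDC 1. The median difference of the 30 pairs was 2.64 units. Assays of such near-identical miRNAs may read part of each other's template, which the files cannot show, so the levels of such pairs are uncertain.

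The let-7 family, known to rise as cells differentiate, gave signal in 8 of 9 assays, and miR-98 gave none. let-7e (-3.06) was the highest and let-7f (-8.34) the lowest, a difference of 5.28 units. Between them lay let-7i (-4.88), let-7b (-5.33), let-7a (-5.67), let-7d (-5.89), let-7c (-6.04) and let-7g (-7.13). let-7a exceeded let-7f by 2.68 units although they differ at 1 base. The sequences are given since these 8 share the seed and most of the rest.
let-7e-5p: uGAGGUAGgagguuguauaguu
let-7i-5p: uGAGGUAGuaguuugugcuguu
let-7b-5p: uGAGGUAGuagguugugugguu
let-7a-5p: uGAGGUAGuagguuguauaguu
let-7d-5p: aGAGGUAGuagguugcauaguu
let-7c-5p: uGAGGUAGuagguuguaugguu
let-7g-5p: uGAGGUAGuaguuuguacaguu
let-7f-5p: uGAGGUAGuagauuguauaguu

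The seed of miR-17 and miR-20a, tied to growth and cell cycle entry, gave signal in all 5 assays with a sequence. miR-20a (-3.50) and miR-17 (-3.93) led, followed by miR-20b (-6.27), miR-93 (-7.30) and miR-106b (-7.75). Their summed share was 5.24%, with 3.43% in MDC 1 as the lowest and 6.31% as the highest reading. The related miR-106a, which had no matched sequence, held 1.97% and is not in this sum.

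The other seeds with at least 3 members ranged as widely. In the miR-30 seed miR-30c was at -4.87 and miR-30e at -7.97, with miR-30b (-4.88) and miR-30d (-9.74) left out for want of a matched sequence. In the miR-92a seed miR-92a was at -4.82 and miR-363 at -20.95, the widest gap at 16.13 units. In the miR-15 and miR-16 seed miR-16 was at -5.38 and miR-15b at -12.13. The pair at the ends was miR-152 (-6.32) and miR-148b (-12.27) in the miR-148 seed, and miR-34a (-6.21) and miR-449a (-11.86) in the miR-34 seed. Only the seed of miR-301b (-8.04), miR-130b (-8.25) and miR-130a (-8.99) stayed within 1 unit among the 9.

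By position, 190 of the 201 members were matched to a rat miRNA gene. With neighbouring genes joined where they lay within 10 kb, 12 clusters held at least 3 members. Levels within a cluster ranged over 2.00 to 19.35 units, with a median SD of 3.81, beside an SD of 4.55 over all 201 members. The ranges include both arms and both species' assays where these gave signal, and miRNAs encoded at several loci count in each of their clusters. With the single-locus members alone, the range was 14.69 units in place of 19.35 for Mir363 to Mir106a. It was 4.94 in place of 6.83 for Mir17 to Mir92a1 and 2.67 in place of 7.75 for Mir24-1 to Mir23b. The let-7 cluster on chromosome 17 had only 1 single-locus member and so no such range.

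**Figure D4:**
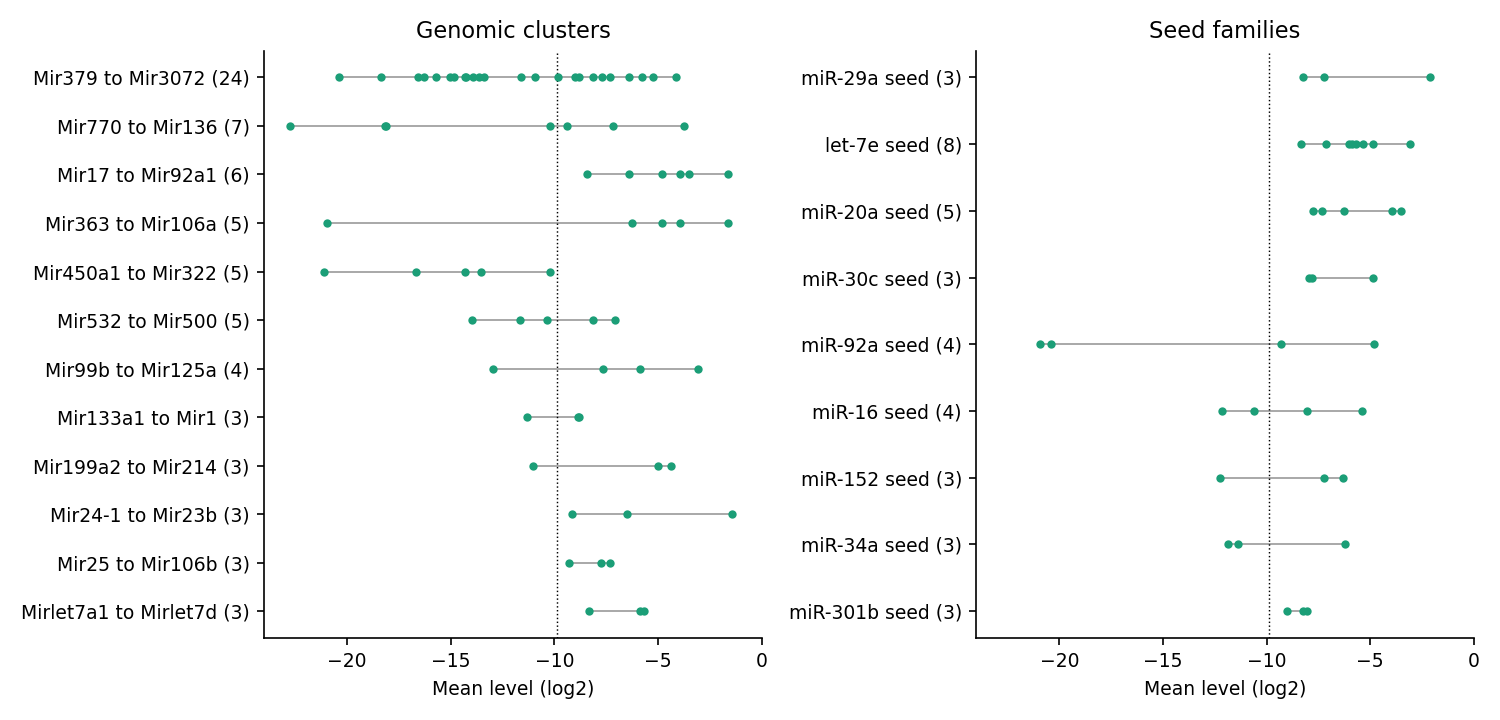
Mean level (log2, x axis) of each member, drawn as points on a line from the lowest to the highest, in the genomic clusters (left) and the seed families (right) that held at least 3 members, with the number of members in brackets and a dotted line at the median of all 201 miRNAs. Most lines are several units long, and those of Mir25 to Mir106b and of the miR-301b seed are the shortest.

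The miR-17 cluster on chromosome 15 (Mir17 to Mir92a1) gave signal in 6 of 7 assays. miR-19b (-1.60) was the highest and miR-18a (-8.44) the lowest, and rno-miR-17-3p, the other arm of miR-17, gave no signal. miR-19b, miR-17 and miR-92a are also encoded by the related cluster on chromosome X (Mir363 to Mir106a). Of the members found only there, miR-20b was at -6.27 and miR-363 at -20.95. In the third related cluster, on chromosome 12, miR-93 (-7.30), miR-106b (-7.75) and miR-25 (-9.30) lay within 2.00 units. The 12 assays listed for the main arms of these 3 clusters all gave signal. They held 18.2% of the total, and 17.9% to 18.5% in the single readings. This sum includes miR-106a (1.97%), which was matched to no rat gene, whereas the rat gene Mir106a was matched to miR-17. Whether these assays read part of the same template was not tested.

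The cluster of Mir24-1, Mir27b and Mir23b on chromosome 17 held miR-24 (-1.42) with miR-27b (-6.49) and miR-23b (-9.17). miR-24 is also encoded on chromosome 19, where miR-27a was at -7.85 and miR-23a gave no signal. In the cluster of Mir99b, Mirlet7e and Mir125a on chromosome 1 let-7e (-3.06) was the highest and miR-125a-3p (-12.98) the lowest of 4. In Mir199a2 to Mir214 on chromosome 13 miR-199a-3p (-4.39) was the highest and miR-199a-5p (-11.05) the lowest. In the let-7 cluster on chromosome 17 let-7a (-5.67) and let-7f (-8.34) were the ends, and both are also encoded at other loci. The bicistronic Mir133a1 and Mir1 on chromosome 18 spanned 2.53 units. miR-133a (-8.79) was at the top with the rat assay of miR-1 (-8.84) next to it, and the mouse assay of miR-1 (-11.32) at the bottom. The span thus rests on the mouse assay. On chromosome X, miR-503 (-10.22) and miR-542-5p (-21.12) were the ends of Mir450a1 to Mir322, and the mouse assay of miR-532-5p (-7.06) and miR-362-3p (-13.98) those of Mir532 to Mir500.

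The largest group by number lay between Dlk1 and Dio3 on chromosome 6, an imprinted region whose miRNAs are expressed from the maternal chromosome. Of its 49 assays 32 gave signal, beside 201 of the 375 on the whole card (53.6%). The 32 held 6.29% of the total (5.58% to 6.77% over the readings). Their median level was -11.25, below the -9.89 of all members, and they spanned 19.00 units. miR-127 (-3.77, rank 10), miR-411 (-4.14, rank 15), miR-379 (-5.25, rank 27), miR-409-3p (-5.80) and miR-382 (-6.41) were the highest.

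The high and low members were mixed along the locus. miR-411 and miR-379 are the first genes of the largest of the clusters there, Mir379 to Mir3072, in which 24 of 34 assays gave signal and miR-487b (-20.40) was the lowest. miR-127 lies in Mir770 to Mir136, with 7 of 11, where miR-337-5p (-22.77) was the lowest of all 201 members. The other member was miR-370 (-7.81), between them. The assays without signal included miR-329, miR-376b, miR-376c, miR-493 and miR-770-3p.
miR-411-5p: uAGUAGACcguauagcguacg
miR-337-5p: cGGCGUCAugcaggaguugau

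**Figure D5:**
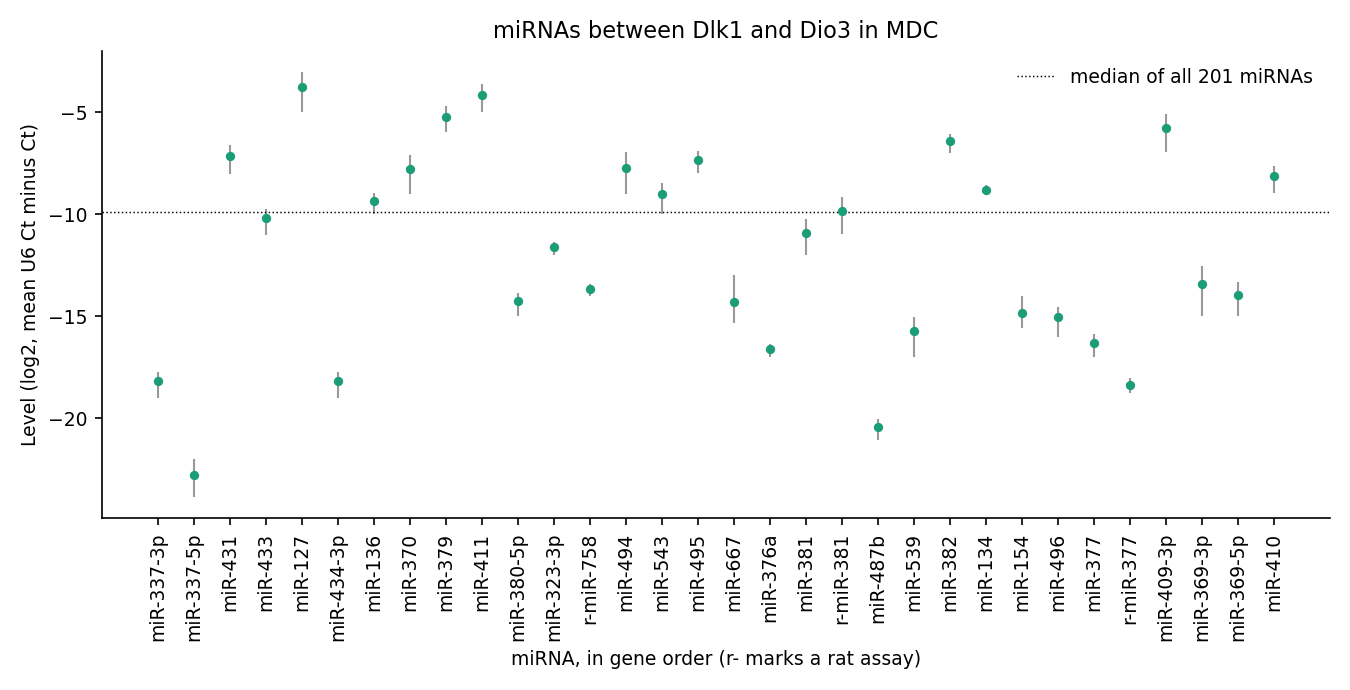
Levels (y axis, log2) of the 32 assays with signal from the region between Dlk1 and Dio3, in the order of their genes (x axis); points are means of the 3 readings and lines run from the lowest to the highest reading. High members such as miR-127 and miR-411 stand beside members 10 or more units lower, and the dotted line is the median of all 201 miRNAs.

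The 44 pairs of 5p and 3p assays of 1 hairpin, with mouse and rat assays counted separately, were compared next. Both arms gave signal in 14 pairs, 1 arm in 17 and neither in 13. Among the 14 the 5p arm had the higher mean level in 5 and the 3p arm in 9, and the median absolute difference was 3.85 units. The order was the same in all 3 readings for 12, although arms on 1 step of MDC 1, such as those of miR-324, were not resolved there. miR-125b has 2 genes in the rat annotation, so its assays may sum over 2 hairpins. The widest gap was at miR-125b, whose 5p arm (-2.44) stood 9.28 units above its 3p arm (-11.72). It was followed by miR-142, with the 3p arm (-12.56) 8.19 units above the 5p arm (-20.75), and by miR-125a, with the 5p arm (-5.86) 7.12 units above the 3p arm (-12.98).

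Other 3p arms stood well above their 5p arms. They were miR-331-3p (-8.17, against -15.26 for 5p), miR-542-3p (-14.32, against -21.12), miR-199a-3p (-4.39, against -11.05), miR-337-3p (-18.16, against -22.77) and miR-126-3p (-12.05, against -15.14). The arms were closer for miR-324 (5p -10.10 and 3p -11.35), miR-340 (5p -10.65 and 3p -11.64) miR-369 (5p -13.95 and 3p -13.41) and miR-335 (5p -10.19 and 3p -10.06). For miR-369, and for miR-532 when read by the mouse 5p assay (5p -7.06 and 3p -8.14), the order was not the same in all readings. With the rat 5p assay of miR-532 (-10.36) the 3p arm was the higher. The arms of miR-199a, both known from fibroblasts, lie on 1 hairpin at chr13:77116255-77116277 (5p) and chr13:77116294-77116315 (3p).
miR-199a-5p: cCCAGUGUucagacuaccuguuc
miR-199a-3p: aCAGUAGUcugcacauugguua

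Some miRNAs had both a mouse-named and a rat-named assay, and these were paired by name. The assays' own target sequences were not used here, so the assays of a pair may be made for different sequences. Of 17 such pairs, both gave signal in 6, only 1 in 4 and neither in 7. The rat assay minus the mouse assay was 2.48 units for miR-1 (1.04 to 3.81 over the readings), 1.09 for miR-381 (1.02 to 1.16) and 0.15 for miR-224 (-0.28 to 1.00). It was -2.04 for miR-377 (-2.69 to -1.04), -3.15 for miR-450a (-4.52 to -0.98) and -3.30 for miR-532-5p (-5.46 at the lowest). For miR-532-5p the assays were on the same step in MDC 1 and over 4 units apart in the other readings. The median absolute difference over the 6 pairs was 2.26 units. In the whole profile the widest gap between neighbouring ranks was 1.65 units, and ranks 1 and 12 lay 2.51 units apart. The pairs cannot show how far assays made for 1 and the same sequence differ.

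The smaller lists held little signal. The miR-15 and miR-16 family gave signal in 5 of 6 assays and held 0.862%, with miR-16 (-5.38) the highest and miR-15b (-12.13) the lowest, and miR-195 (-8.06), miR-15a (-9.10) and miR-497 (-10.59) between them. Of the 6 assays for p53-induced miRNAs, 5 gave signal and held 0.478%, with miR-34a (-6.21) the highest and miR-194 (-12.76) the lowest. The share of miRNAs that begin with U was 54.9% of the 173 members with a sequence, 63.6% of the 44 such members among the 50 highest and 44.6% of the 74 assays without signal.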

How the data were processed

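Total RNA was reverse transcribed and preamplified by the authors with Megaplex primer pools and read on a real-time PCR instrument with SDS 2.3. The deposited files hold 1 Ct per well, in cycles, and no count; the authors' table of Ct minus mean U6 Ct differed from the wells by at most 5.0e-05 cycles and was not used. Python 3.11.15 with pandas 2.3.3 was used for levels, ranks and shares. Members were rodent assays with a Ct below 40 in all 3 MDC sets. The members and lists were chosen with earlier results of these data known. No test was run, since the 3 sets of the 1 group were counted as 1 sample. Named miRNAs were the 20 highest, the 5 lowest, the 5 widest in range and the markers. Also named were the ends of seeds and clusters with at least 3 members, arm pairs, species pairs and controls. miR-143, miR-27a, miR-27b, miR-23b and the let-7, miR-15 and miR-17 relatives were named beside them, some after their values were seen. Assays were matched to rat RefSeq miRNAs (GRCr8) by name, and gene positions from the same annotation gave clusters within 10 kb. The calculations were tested on simulated data. Amounts of RNA differ between the labels and the study's methods, and neither gives the number of animals per set.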

Additional observations from a re-analysis of the deposited data

How the results depend on the processing

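No paired analysis was possible because the MDC sets were described alone, with no test. Leaving out MDC 1, MDC 2 or MDC 3 in turn kept the 201 members, gave 26.7% to 32.3% for the 3 highest miRNAs, 60.4% to 63.0% for the 10 highest and 37 to 39 miRNAs for 90% of the signal, and miR-24 led each time. The median range of a member over the readings was 0.178 to 1.56 units, with the low value without MDC 1. At 1.9-fold per cycle in place of 2-fold, the 10 highest held 57.8% and the 20 highest 73.9%. The median level, -9.89 with U6, was 0.39 relative to the mean of the members, 1.75 relative to the other control RNAs and 16.2 as 40 minus Ct; the median range, 1.57 with U6, was 0.778 relative to the mean of the members and 2.67 relative to the other control RNAs. Ct limits of 35 and 32 left 192 and 185 members. Of the 20 highest, 19 stayed without MDC 1 and 20 without MDC 2 or MDC 3; the normalizer and the Ct limits cannot change this order. Windows of 3 and 50 kb gave 12 and 14 clusters, and seeds of bases 2 to 7 again gave 9 with at least 3 members. The rounding of MDC 2 was chosen after seeing the data. The mean Ct of 14 members was over 32, close to the limit of detection.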

Other observations

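Outside the groups described above, miR-193b (-3.97) and miR-193 (-11.69), which differ at 1 of the 19 bases compared, lay 7.72 units apart, the widest gap among the pairs of the same seed that differ at 1 or 2 bases. miR-146a (-7.55) and miR-146b (-13.16), known from inflammatory signalling, differ at 2 of the 22 bases compared and lay 5.61 units apart. Their lengths are 22 and 24 bases. miR-103 (-9.65) and miR-107 (-14.15), which differ at 1 base, lay 4.50 units apart. Relative to U6, the least variable members over the 3 readings were miR-210 (-7.00, -6.78 and -6.97), known from the response to low oxygen, miR-197 (-7.01, -6.77 and -6.86) and miR-99a, with ranges of 0.22, 0.241 and 0.249 units. Their shares of the signal were less stable, with 0.382%, 0.379% and 3.07% in MDC 1 and 0.162%, 0.174% and 1.07% in MDC 3. These members were picked after their values were seen.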
